A study of Homo sapiens and Mus musculus with 10 samples.

Results

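Accessible chromatin was described at 10 genes of the NF-kappaB pathway in GM12878, a B-lymphoblastoid line made by transforming B cells with Epstein-Barr virus, and in 3 other human lines. The 10 genes, of 19970 protein-coding genes on the autosomes and X, were chosen by name for their roles: the subunits NFKB1, NFKB2, REL, RELA and RELB, the inhibitors NFKBIA and TNFAIP3, the adaptor TRAF1, the survival factor BIRC3 and the receptor CD40. The choice was made with earlier results of these data known, so counts over the 10 genes are descriptive and carry no p-value. Bulk ATAC-seq, in which the Tn5 transposase cuts open chromatin, gave one peak list per library. The human libraries were GM12878, HEK293T (an embryonic kidney line with the SV40 large T antigen), HFF1 (foreskin fibroblasts) and K562 (an erythroleukaemia line), with 2 libraries each and no treatment named in the labels. The series also holds 2 mouse embryonic stem cell libraries, which were not used here. Each line stands for itself: GM12878 was the sole B-cell line and the sole line transformed with Epstein-Barr virus, so those properties and the line cannot be told apart. The names of the GM12878 peaks also carried another prefix than those of the other human lines, and whatever that prefix marks cannot be told apart from the line either.

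NF-kappaB is a family of dimeric transcription factors that inhibitors such as the product of NFKBIA hold in the cytoplasm until a signal has the inhibitor degraded. Receptors such as CD40 recruit TRAF adaptors and BIRC proteins and reach the factors by a canonical route (RELA, REL and the NFKB1 product) and a non-canonical route (RELB and the NFKB2 product). The membrane protein LMP1 of Epstein-Barr virus is known to act much like a constantly active CD40, and lymphoblastoid cells are known for high NF-kappaB activity. The factors bind variants of one short palindrome-like sequence, the kappaB site, and several genes of the pathway, NFKBIA and TNFAIP3 among them, are known targets.

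The peak lists held 101704 and 103715 peaks in GM12878, 52438 and 52137 in HEK293T, 127359 and 120344 in HFF1, and 78601 and 71241 in K562. Depth, read as the background level recovered from the peak values, was 1.71 and 1.73 reads per window in GM12878, from 1.97 to 2.43 in HFF1 and K562, and from 0.465 to 0.466 in HEK293T. Peak numbers were therefore scaled to 100000 peaks of each list before they were compared. The B-cell markers CD79A, CD79B and MS4A1 had start site peaks in both GM12878 libraries and in none of the other human libraries, while PAX5 and CD22 had one in all 8. GATA1 and TAL1 marked K562, COL3A1 marked HFF1, and PAX2 and LHX1 marked HEK293T in the same way. Of the K562 markers, HBG1 had no start site peak in any library.

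The sequence upstream of the genes is shown first because 6 of the 10 genes (NFKB1, RELB, NFKBIA, TNFAIP3, BIRC3 and CD40) held a match to the kappaB consensus there. Among all 19970 genes, 10.5% had such a match in the 250 bases before the most upstream annotated start, on either strand. The 3 windows of GRCh38 printed here touch no annotated exon and are written 5′ to 3′ on the strand of the gene, with the matches in capitals. They lie at chr6:137866964-137867213 (plus strand) for TNFAIP3, at chr14:35404750-35404999 (minus strand) for NFKBIA and at chr11:102317234-102317483 (plus strand) for BIRC3.
TNFAIP3 upstream: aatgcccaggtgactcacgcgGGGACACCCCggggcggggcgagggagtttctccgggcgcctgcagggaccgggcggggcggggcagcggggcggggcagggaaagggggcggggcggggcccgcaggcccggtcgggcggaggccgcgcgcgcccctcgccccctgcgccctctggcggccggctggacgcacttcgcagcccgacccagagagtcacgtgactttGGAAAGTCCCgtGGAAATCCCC
NFKBIA upstream: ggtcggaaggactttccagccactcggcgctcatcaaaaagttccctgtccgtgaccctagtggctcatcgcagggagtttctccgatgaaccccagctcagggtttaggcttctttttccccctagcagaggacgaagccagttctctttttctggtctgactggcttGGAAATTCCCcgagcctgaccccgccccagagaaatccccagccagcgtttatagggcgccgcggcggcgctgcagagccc
BIRC3 upstream: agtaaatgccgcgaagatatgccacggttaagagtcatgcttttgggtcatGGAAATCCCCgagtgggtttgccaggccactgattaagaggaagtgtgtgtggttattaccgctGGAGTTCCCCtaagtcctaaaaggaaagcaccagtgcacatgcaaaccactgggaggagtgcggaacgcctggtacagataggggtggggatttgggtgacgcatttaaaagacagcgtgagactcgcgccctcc
TNFAIP3 had 3 matches, with a pair of them directly before the start, BIRC3 had 2, and NFKBIA had 1. NFKB2, REL, RELA and TRAF1 had no match in their window. A match describes these letters and does not show binding.

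Counting any annotated start, the 10 genes were open at start sites in nearly every line. A peak lay within 1 kb of an annotated start in both libraries of GM12878 for 10 of 10 genes, of HEK293T for 9, of HFF1 for 10 and of K562 for 10. The same held for 71.9% of all genes in GM12878, 67.8% in HEK293T, 76.2% in HFF1 and 70.4% in K562. The 10 genes have from 3 (TRAF1) to 24 (NFKB1) annotated starts, and each start adds a window in which a peak counts. At canonical starts alone it was 10 genes in GM12878, 7 in HEK293T, 10 in HFF1 and 10 in K562. The share of all genes at canonical starts was not counted. None of the 10 genes had start site peaks in GM12878 and in no other human library, where 1.40% of all genes did. CD40 had no peak at any annotated start in HEK293T. The peak at its canonical start had authors' folds of 9.60 and 9.84 in GM12878, 7.38 and 7.10 in HFF1 and 11.8 and 11.3 in K562. A missing peak is one that did not pass the authors' threshold at the depth of that library, which was lowest in HEK293T. The fold is the ratio of the peak summit to the local background of its own library, so it describes each peak and was not compared between libraries.

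**Figure D1:**
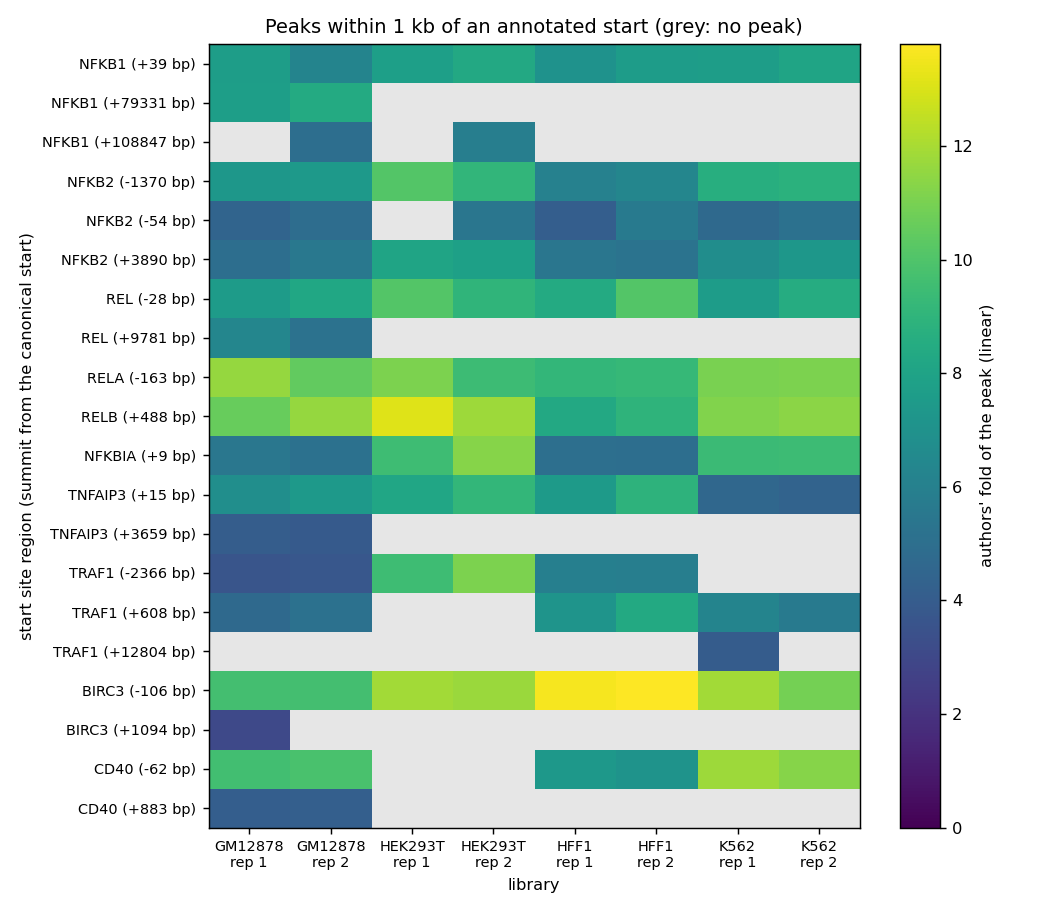
Authors' fold of each peak (colour, linear scale) within 1 kb of an annotated start of the 10 genes, one row per merged region and one column per library, with the summit position in bp from the canonical start and grey where a library had no peak. The regions at the canonical or nearby start were filled in most libraries, while regions at NFKB1 (+79331 bp), REL (+9781 bp), TNFAIP3 (+3659 bp) and CD40 (+883 bp) were filled in GM12878 alone.

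What differed at the start sites was which of the annotated starts carried a peak. TRAF1, whose product is an adaptor of TNF-family receptors, had one region 608 bp downstream of its canonical start and one at an alternative start 2366 bp upstream. The downstream region had folds of 4.74 and 5.13 in GM12878, 7.16 and 8.40 in HFF1 and 6.24 and 5.62 in K562, and no peak in HEK293T. The upstream one had folds of 3.62 and 3.74 in GM12878, 9.54 and 11.1 in HEK293T and 5.95 and 5.92 in HFF1, and no peak in K562. HEK293T thus had a peak at one TRAF1 start and K562 at the other, and GM12878 and HFF1 had both.

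A region was counted as GM12878-only when both GM12878 libraries had a peak in it and the 6 other human libraries had none. Such regions lay within 1 kb of an alternative start, with the summit in an intron, at 4 genes. In NFKB1, which encodes the precursor of a canonical subunit, the region had folds of 7.74 and 8.43, with its summit 79331 bp inside the gene. REL, a subunit most used in lymphoid cells, had folds of 6.31 and 5.19 at 9781 bp. In TNFAIP3, the gene of the A20 deubiquitinase that dampens the pathway, they were 4.06 and 3.93 at 3659 bp, and in CD40 they were 4.11 and 4.16 at 883 bp. These peaks were lower in fold than the peak at the canonical start in both GM12878 libraries for REL, TNFAIP3 and CD40. They were higher in fold for NFKB1, whose canonical peak had folds of 7.67 and 6.24. By −log10 p the NFKB1 order was the reverse, with 16.9 and 19.2 against 56.1 and 41.5 at the canonical peak.

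Over the whole neighbourhood, the gene body with 100 kb on either side, 7 of the 10 genes were called higher in GM12878 than in the mean of the other 3 lines by scaled peak number, and 1 was called lower. The limma fit with Benjamini-Hochberg adjustment called 23.0% of 19605 genes higher and 25.2% lower by the same rule, and the median log2 difference was 0.36 for the 10 genes against -0.02 for all genes. REL stood highest of the 10. Because the mean of 3 unlike lines can hide which line differs, GM12878 was also set against each line in the same fit, a comparison added after the data were seen. Against HEK293T 6 genes were higher and 2 lower, with 25.8% and 28.7% of all genes. Against HFF1 6 were higher and 0 lower, with 32.2% and 18.0% of all genes. Against K562 2 were higher (NFKB1 and REL) and 3 lower (NFKB2, RELA and TNFAIP3), with 17.1% and 36.1% of all genes. These comparisons share the GM12878 libraries. Summed over the 10 genes, the scaled number was 225 ± 0.322 in GM12878 (SD, n = 2), 237 ± 5.26 in K562, 185 ± 4.81 in HEK293T and 160 ± 2.42 in HFF1, so the sum was highest in K562. The scaled median over all genes was also higher in K562 (16.5 and 16.8 in its libraries) than in GM12878 (14.7 and 14.5), while the median over the 10 genes was 20.4 in both K562 libraries and 21.6 and 21.2 in GM12878.

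**Figure D2:**
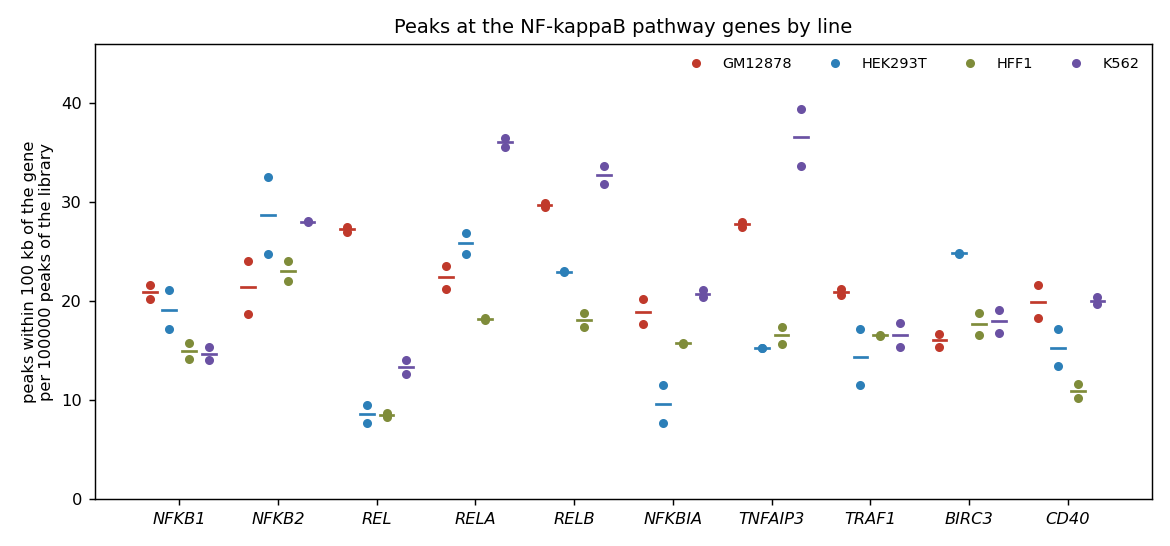
Peaks within 100 kb of each gene per 100000 peaks of the library (linear axis from 0), one point per library and a bar at the mean of the 2 libraries of a line. GM12878 lies apart from all other lines at REL, while K562 lies highest at RELA, RELB, NFKBIA and TNFAIP3.

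**Figure D3:**
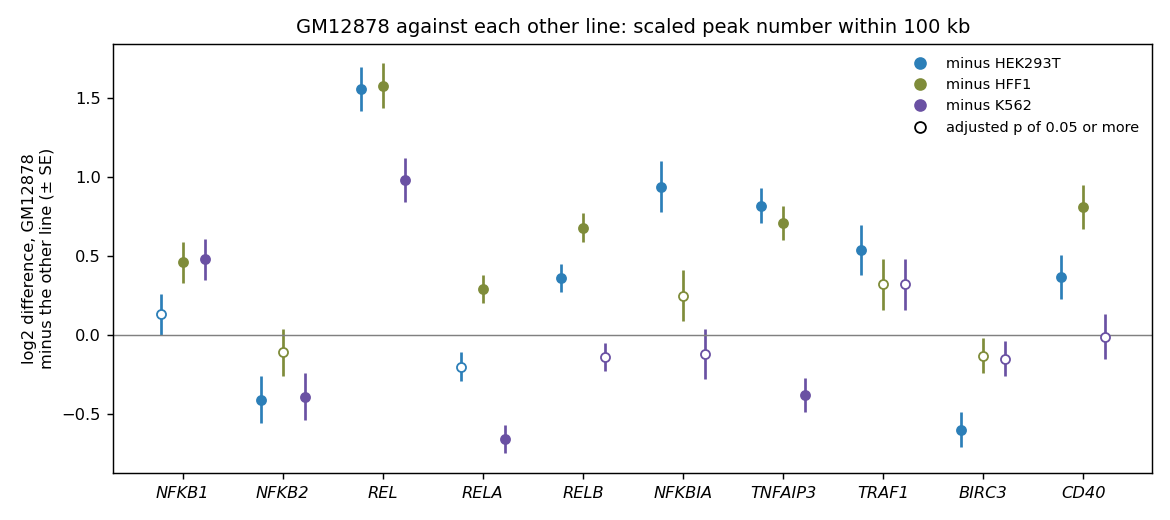
Log2 difference of the scaled peak number between GM12878 and each other line with its standard error from limma, filled where the adjusted p was under 0.05. REL lies above 0 against all 3 lines. TNFAIP3, RELB, NFKBIA and CD40 lie above 0 against HEK293T and HFF1 and below 0 against K562 (CD40 at -0.01).

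REL had 28 and 28 peaks in the GM12878 libraries, 5 and 4 in HEK293T, 11 and 10 in HFF1 and 11 and 9 in K562. Per 100000 peaks REL had 27.3 ± 0.377 in GM12878 (SD, n = 2) against 8.60 ± 1.32 in HEK293T, 8.47 ± 0.232 in HFF1 and 13.3 ± 0.963 in K562. The scaled GM12878 libraries, at 27.5 and 27.0, did not overlap the 6 others, at 7.67 to 14.0. The share of all genes without such overlap was not counted. The difference from the mean of the other lines was 1.37 ± 0.11 on the log2(value + 1) scale (SE), a 2.59-fold change with an adjusted p of 1.26e-05 by limma, and 97.8% of genes had a lower difference. Against single lines it was 1.56 ± 0.14 for HEK293T, 1.58 ± 0.14 for HFF1 and 0.98 ± 0.14 for K562, each past the threshold. The call held in 18 of 19 alternative limma settings. It was lost with the 20000 best peaks of each library, where the difference was 0.48 (limma adjusted p = 0.122). The exact permutation test over all pairings of the libraries gave p = 0.0286 and did not pass after adjustment (adjusted p = 0.0521). That test asks whether the lines differ at all, so it does not test GM12878 against the others.

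Most of the gain at REL lay outside the start site windows, which held 2 peaks in each GM12878 library and 1 in each other library. The canonical start of REL had a peak in all 8 libraries, with folds of 7.59 and 8.23 in GM12878 and from 7.65 to 10.1 in the other libraries. Of 28 regions called in both GM12878 libraries, 22 had no peak in the other human libraries (78.6%), against 3 regions called in HEK293T, 9 in HFF1 and 9 in K562. These 22 regions spread over 9 upstream of the gene, 4 in its body and 9 downstream, from 87115 bp before the canonical start to 111488 bp after it. Upstream they lay mostly in introns of the non-coding gene REL-DT and at PAPOLG, and downstream all 9 lay in PUS10. Of the other 19969 genes, 79 had at least as many such regions. With reads thinned to the depth of HEK293T, 11 of the 22 still had a peak in both GM12878 libraries. Over the genome 56.7% of GM12878-only regions did.

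**Figure D4:**
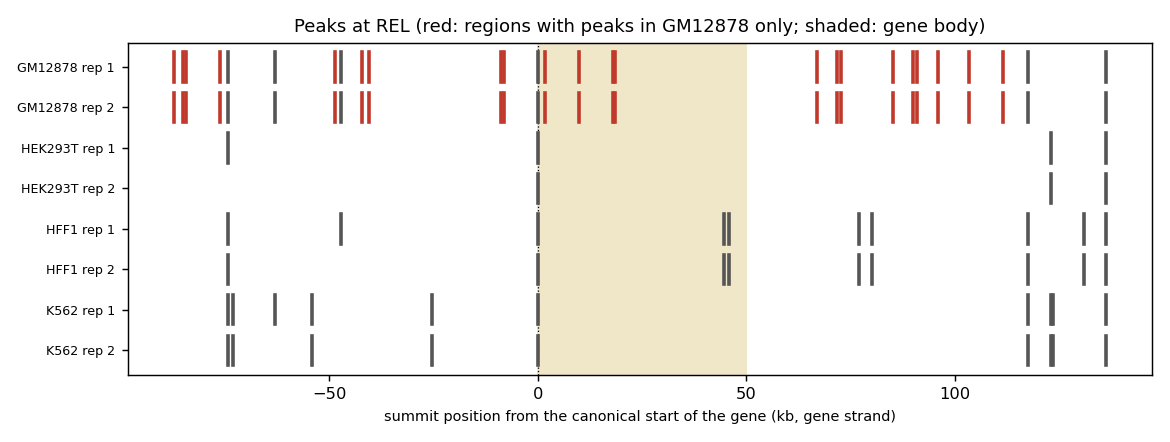
Regions with a peak at REL in each of the 8 libraries, placed by summit position in kb from the canonical start (linear axis), with the gene body shaded and regions of GM12878 alone in red. The 22 red regions lie on both sides of the gene and in its body, while the region at the start is shared by all libraries.

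NFKB1 had 22 and 21 peaks in GM12878, 9 and 11 in HEK293T, 18 and 19 in HFF1 and 11 and 11 in K562. The extra peaks lay inside the gene: beyond the start sites its body held 10 and 8 peaks in GM12878 and from 0 to 3 in each other library. The flanks held 8 and 9 peaks in GM12878, 7 and 6 in HEK293T, 16 and 16 in HFF1 and 10 and 8 in K562. Per 100000 peaks the whole neighbourhood had 20.9 ± 0.978 in GM12878 (SD, n = 2), 19.1 ± 2.78 in HEK293T, 15.0 ± 1.17 in HFF1 and 14.7 ± 1.02 in K562, and the log2 difference of 0.36 ± 0.10 passed the limma threshold (adjusted p = 0.0167). It did not against HEK293T alone (0.13 ± 0.13, adjusted p = 0.408). Of its 7 GM12878-only regions 6 lay in the body, and the best-ranked, in an intron of MANBA at chr4:102687291-102688346, had folds of 11.4 and 10.9.

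RELB, the subunit of the non-canonical route, had 30 and 31 peaks in GM12878, 12 and 12 in HEK293T, 24 and 21 in HFF1 and 25 and 24 in K562. Scaled, K562 lay above GM12878, at 32.7 ± 1.33 against 29.7 ± 0.277 (SD, n = 2). The difference of 0.30 ± 0.07 from the mean of the 3 lines passed the limma threshold (adjusted p = 0.00648), and that from K562 did not (-0.14 ± 0.09, adjusted p = 0.218). Nearly all of its peaks lay outside the gene, among 12 other protein-coding genes, which include APOE and CLPTM1. Its best-ranked GM12878-only region overlapped a start site of PPP1R37 at chr19:45136457-45137763, with folds of 11.8 and 10.8.

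NFKB2, the precursor gene of the other non-canonical subunit, and RELA, the main activating subunit, did not pass the threshold against the mean of the other lines, and the sign of both differences turned with unscaled numbers and with the 20000 best peaks. NFKB2 had 19 and 25 peaks in GM12878, 13 and 17 in HEK293T, 28 and 29 in HFF1 and 22 and 20 in K562. Its log2 difference was -0.30 ± 0.12 (limma, adjusted p = 0.0586). RELA had 24 and 22 peaks in GM12878, 13 and 14 in HEK293T, 23 and 22 in HFF1 and 28 and 26 in K562, and its difference was -0.19 ± 0.08 (adjusted p = 0.0610). RELA was lower than in K562 by the limma test (-0.66 ± 0.09, adjusted p = 0.000279) and higher than in HFF1 (0.29 ± 0.09, adjusted p = 0.0277). Neither gene had a peak in its body beyond the start sites in any library. Their bodies are short (8415 and 9492 bp) with 18 annotated starts each, and start site windows are counted first, so this absence says little. Both genes lie in gene-dense stretches, with 7 and 10 other protein-coding genes in the window.

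NFKBIA, the inhibitor that the factors themselves switch on, had 18 and 21 peaks in GM12878, 4 and 6 in HEK293T, 20 and 19 in HFF1 and 16 and 15 in K562. Scaled, K562 had the most, at 20.7 ± 0.494 against 19.0 ± 1.80 in GM12878 (SD, n = 2), 15.7 ± 0.0597 in HFF1 and 9.57 ± 2.74 in HEK293T. The NFKBIA difference of 0.36 ± 0.13 was called by limma with an adjusted p of 0.0498, just under the threshold, and came from HEK293T: against that line it was 0.94 ± 0.16, against HFF1 0.25 ± 0.16 and against K562 -0.12 ± 0.16. Only the first of these passed (adjusted p = 0.000983). The call was lost in 13 of 19 alternatives and turned in 1: among the 20000 best peaks of each library NFKBIA was called lower (-0.74 ± 0.11, limma adjusted p = 0.00867). Of its 7 GM12878-only regions the best-ranked lay upstream of the gene, between genes, at chr14:35416770-35417349 (12304 bp from the start, folds 8.71 and 8.19) and at chr14:35480391-35480798 (75855 bp, folds 15.6 and 15.7).

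TNFAIP3 had 28 and 29 peaks in GM12878, 8 and 8 in HEK293T, 20 and 21 in HFF1 and 31 and 24 in K562. Scaled, K562 had the most, at 36.6 ± 4.07 against 27.7 ± 0.304 in GM12878 (SD, n = 2), 16.6 ± 1.23 in HFF1 and 15.3 ± 0.0623 in HEK293T. GM12878 was higher than HEK293T (0.82 ± 0.11, limma adjusted p = 0.000167) and HFF1 (0.71 ± 0.11, adjusted p = 0.000425) and lower than K562 (-0.38 ± 0.11, adjusted p = 0.0114). Of 26 regions called in GM12878 and 22 in K562, 12 and 10 were found in that line alone, where the genome shares were 40.6% and 25.4%, and 2 in both of them and no other (genome 3.25% of the GM12878 regions). No other protein-coding gene lies within 100 kb of TNFAIP3. Its GM12878-only regions fell in the non-coding genes WAKMAR2 (chr6:137827745-137828696, folds 8.11 and 8.16) and LINC02865 (chr6:137951125-137951566, folds 8.21 and 8.20), among others.

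TRAF1 had 21 and 22 peaks in GM12878, 9 and 6 in HEK293T, 21 and 20 in HFF1 and 14 and 11 in K562. Its log2 difference was 0.39 ± 0.13 (limma, adjusted p = 0.0319), and only that from HEK293T passed on its own (0.54 ± 0.16, adjusted p = 0.0174). The call held in 9 of 19 alternative limma settings. The exact permutation test for any difference between the lines did not pass (adjusted p = 0.191). The number of GM12878-only regions was small, 4 of 18 called, but they held the best-ranked such region of all 10 genes, at chr9:120944350-120944963 in an intron of C5, 17845 bp upstream of the canonical start. Its folds were 18.9 and 18.3, above the 4.74 and 5.13 at the gene's own start.

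BIRC3, whose product inhibits apoptosis and is a ubiquitin ligase of the pathway, was the one gene called lower. It had 17 and 16 peaks in GM12878, 13 and 13 in HEK293T, 24 and 20 in HFF1 and 15 and 12 in K562, and its log2 difference was -0.29 ± 0.09 (limma, adjusted p = 0.0222). HEK293T had the most for its list length, 24.9 ± 0.101 per 100000 peaks against 16.1 ± 0.911 in GM12878 (SD, n = 2), and the difference passed against that line alone (-0.60 ± 0.11, adjusted p = 0.00139). The direction depended on the scaling: it was 0.07 with unscaled numbers and 0.17 with the 20000 best peaks, neither past the threshold. BIRC3 had few GM12878-only regions, 3 of 13, yet one at chr11:102368349-102368802, in an intron of the neighbouring BIRC2, had folds of 21.4 and 21.8, against 9.70 and 9.65 at its start.

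CD40 had 22 and 19 peaks in GM12878, 9 and 7 in HEK293T, 13 and 14 in HFF1 and 16 and 14 in K562. Scaled, GM12878 and K562 were level, at 20.0 ± 2.34 and 20.0 ± 0.498 (SD, n = 2), above 15.3 ± 2.64 in HEK293T and 10.9 ± 1.01 in HFF1. The difference from the mean of the 3 lines was 0.39 ± 0.12 (limma, adjusted p = 0.0184), and from K562 -0.01 ± 0.14 (adjusted p = 0.976). Upstream of the gene, between genes, lay a pair of GM12878-only regions with folds above those at its start, at chr20:46108354-46108899 (9736 bp, folds 13.4 and 14.8) and chr20:46099501-46100012 (18573 bp, folds 15.5 and 14.9).

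The count of called genes rested on both GM12878 libraries, and also on the window and the peak cutoff. Without GM12878 replicate 1, REL and TNFAIP3 were still called higher and none lower (12.7% and 14.7% of all genes in that setting). Without GM12878 replicate 2, REL and CD40 were called higher and NFKB2, in place of BIRC3, lower (13.1% and 15.4% of all genes). After thinning to the depth of HEK293T 5 were higher (REL, NFKB1, TNFAIP3, TRAF1 and RELB) and 0 lower (17.1% and 18.7% of all genes). With 50 kb flanks 3 were higher (REL, NFKB1 and CD40) and 0 lower (20.7% and 22.9%). With the 20000 best peaks 2 were higher and 1 lower (18.8% and 12.3%). With a −log10 q of at least 5 it was 4 and 2 (22.8% and 26.4%), and without start site peaks 4 and 2 (24.5% and 17.8%). Unscaled numbers kept 7 higher and 0 lower (52.2% and 8.96%). The exact permutation test asks for any difference between the lines, not for GM12878 against the others. Among the called genes it did not pass at REL, TRAF1, NFKB1 (adjusted p = 0.0824), BIRC3 (adjusted p = 0.0824) and CD40 (adjusted p = 0.0521). It passed at RELB, NFKBIA, TNFAIP3 and RELA (adjusted p = 0.0348 at each), and RELA had no GM12878 call. Of all genes, 41.1% passed the exact permutation test.

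**Figure D5:**
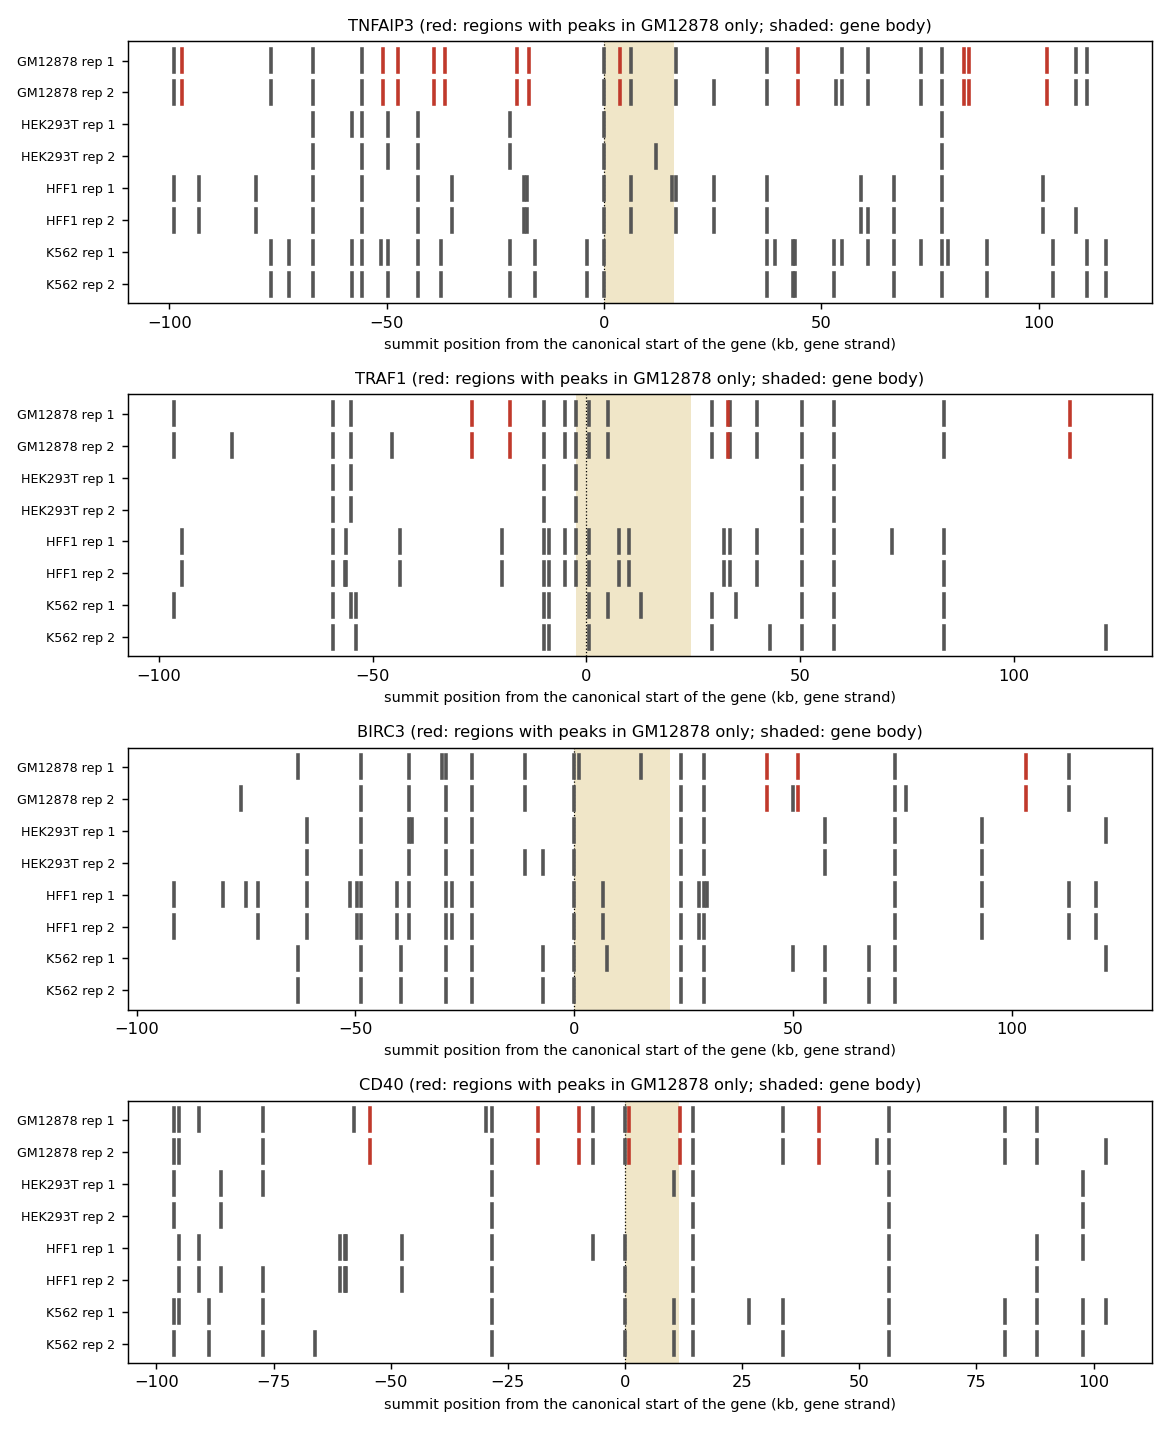
Regions with a peak at TNFAIP3, TRAF1, BIRC3 and CD40 in each of the 8 libraries, placed by summit position in kb from the canonical start (linear axes), with the gene body shaded and regions of GM12878 alone in red. TNFAIP3 has 12 red regions, CD40 6, TRAF1 4 and BIRC3 3, most of them away from the shared peak at the start.

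The peaks of the 8 libraries merged into 400 regions at the 10 genes, of which 204 were called in both GM12878 libraries and 75 of these in GM12878 only, a share of 36.8%. Over the genome the share was 40.6% of 88175 regions. The order of these shares turned after thinning (38.6% at the 10 genes, genome 37.8%) and with the 20000 best peaks of each library (30.9%, genome 28.3%). REL held 22 of the 75, and without REL the share at the other 9 genes was 30.1% (53 of 176). By gene it ran from 18.2% at RELA to 46.2% at TNFAIP3 and 78.6% at REL, and the median number was 6 per gene against 4 for all genes. Of the 75 regions, 4 lay at start sites of the gene, 8 in the rest of its body and 63 in the flanks. By annotation at the summit, 35 were in introns of protein-coding genes, 19 between genes and 12 in introns of non-coding genes. Of the same 75, 6 overlapped start sites of other genes, so a region within 100 kb need not belong to the gene it is counted with. For the other lines, the share found in that line alone was 1.32% in HEK293T (1 of 76, genome 10.8%), 35.5% in HFF1 (61 of 172, genome 50.5%) and 20.5% in K562 (30 of 146, genome 25.4%).

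Sharing with the other lines made up the rest. All 8 libraries had a peak in 56 of the 204 regions (27.5%, genome 23.5%), with 11 at RELA and 9 each at NFKB2 and RELB, and 2 at REL. GM12878 and K562 alone shared 12 (5.88%, genome 3.25%), of which 3 lay at NFKBIA. GM12878 and HFF1 alone shared 9 (4.41%, genome 7.25%), of which 3 each lay at TNFAIP3 and TRAF1. GM12878 and HEK293T alone shared 0, where the genome had 1.64%.

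The best-ranked GM12878-only regions at these genes are shown by 50 bases on either side of the summit of their higher GM12878 peak (GRCh38, plus strand, the summit base in capitals). They were picked for their rank after the values were seen. They lie at chr9:120944591-120944691 for TRAF1, chr20:46108530-46108630 for CD40, chr2:60993022-60993122 for REL (in an intron of PUS10) and chr11:102368584-102368684 for BIRC3.
TRAF1 summit: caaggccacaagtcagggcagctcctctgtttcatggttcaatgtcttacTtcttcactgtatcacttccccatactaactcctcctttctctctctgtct
CD40 summit: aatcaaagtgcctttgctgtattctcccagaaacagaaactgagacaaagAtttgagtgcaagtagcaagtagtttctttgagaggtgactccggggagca
REL summit: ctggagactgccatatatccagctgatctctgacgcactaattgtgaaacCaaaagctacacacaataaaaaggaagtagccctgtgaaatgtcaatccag
BIRC3 summit: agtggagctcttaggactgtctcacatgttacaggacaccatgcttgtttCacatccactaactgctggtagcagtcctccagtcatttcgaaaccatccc
None of the 4 windows held the kappaB consensus or the shorter related sequence GGGANTTTC, which can occur without it, on either strand. The consensus letters of PU.1 (GAGGAAGT), EBF (CCCNNGGGA), RUNX (TGTGGTT) and AP-1 (TGANTCA) were also absent from both strands. That says only that these letters are not in these windows.

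Within 50 bases of the summit, the kappaB consensus was about as frequent at the 10 genes as elsewhere. In GM12878 replicate 1 it was within 50 bases of the summit of 5 of 76 peaks in GM12878-only regions of the 10 genes, 6.58% with a 95% Wilson interval of 2.84% to 14.5%, which covers counting error only. Across the genome 6.40% of the peaks in GM12878-only regions held it. Among all peaks of that library it was 12 of 229 at the 10 genes (5.24%) against 5.26%. In replicate 2 it was 7 of 76 (9.21%) against 6.36%. The same consensus read backwards was in 1 of the 76 peaks of replicate 1 (1.32%, genome 2.66%). By gene, the matches lay 1 each at NFKB2, REL, RELA, NFKBIA and CD40.

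The matched regions that touch no annotated exon are shown for NFKBIA, CD40 and NFKB2, with the consensus in capitals (GRCh38, plus strand, 50 bases on either side of the summit). The NFKBIA region lies downstream of the gene at chr14:35332359-35332459 (72340 bp from the canonical start, folds 7.06 and 6.60). The CD40 region lies upstream in an intron of NCOA5 at chr20:46063908-46064008 (54353 bp, folds 8.04 and 8.68). The NFKB2 region lies upstream between genes at chr10:102384740-102384840 (10921 bp, folds 4.52 and 5.25).
NFKBIA region: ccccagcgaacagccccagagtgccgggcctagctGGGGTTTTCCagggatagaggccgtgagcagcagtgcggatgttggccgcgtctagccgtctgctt
CD40 region: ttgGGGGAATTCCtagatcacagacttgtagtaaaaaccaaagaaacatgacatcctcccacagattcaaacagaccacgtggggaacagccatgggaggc
NFKB2 region: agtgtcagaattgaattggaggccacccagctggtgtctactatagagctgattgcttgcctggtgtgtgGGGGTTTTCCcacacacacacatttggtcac
Of the other motifs in the 76 peaks of replicate 1, AP-1 was in 6 (7.89%, genome 11.3%), PU.1 in 4 (5.26%, genome 4.63%), RUNX in 4 (5.26%, genome 7.42%) and EBF in 3 (3.95%, genome 2.79%).

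The wider pathway was described with 54 further genes, chosen by role and with earlier results of these data known. Of these, 26 were called higher in GM12878 than the mean of the other lines and 7 lower, with a median log2 difference of 0.24, against the 23.0% and 25.2% of all genes given above. Receptors had 7 of 10 higher and none lower, inhibitors 4 of 8 higher and none lower, ligands 3 of 6 higher and none lower, and target genes 7 of 16 higher and 2 lower. Kinases and adaptors were split, with 5 of 14 higher and 5 lower. Windows of neighbouring genes overlap, so not all of these genes are separate loci. TNF, LTA and LTB had nearly equal peak numbers in every library, and BIRC2 lies within 100 kb of BIRC3. The largest positive differences were at IRF4, a B-cell and plasma-cell transcription factor (1.86 ± 0.26, limma adjusted p = 0.000330), TRAF3, the adaptor that restrains the non-canonical route (1.73 ± 0.18, adjusted p = 5.79e-05), and CD40LG, the ligand of CD40 (1.52 ± 0.14, adjusted p = 2.78e-05). IRF4 had 38 and 38 peaks in GM12878 and from 3 to 13 in each other library, and TRAF3 33 and 33 against 1 to 22. The largest negative ones were at BCL10, an adaptor of antigen receptor signalling (-0.84 ± 0.11, adjusted p = 0.000215), MAP3K7, the kinase TAK1 (-0.76 ± 0.23, adjusted p = 0.0208), and IKBKG, the regulatory subunit of the IKK complex (-0.69 ± 0.10, adjusted p = 0.000374). Start site peaks were in both libraries at 49 of the 54 genes in GM12878 (71.9% of all genes), 45 in HFF1 (76.2%), 42 in K562 (70.4%) and 32 in HEK293T (67.8%). GM12878 alone had them at 4 of the 54, and at 1.40% of all genes: the receptors TNFRSF13B and CD27, the ligand gene LTA and the chemokine gene CCL22.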

How the data were processed

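The authors deposited one narrowPeak list per library with a score, a fold (linear ratio of summit to local background), −log10 p and −log10 q per peak, so replicates were not pooled. The lowest deposited −log10 q was 2.00 to 2.05, and the deposited score was not analysed. Per the submitters' processing notes, cutadapt 3.2, Bowtie2 2.4.2, Picard and MACS2 2.2.7.1 were named, with hg38 for human and no roles or order; duplicate and read-shift settings are not given in the sources used here. Nuclei were tagmented after Omni-ATAC lysis, per the labels' protocols. Groups and replicate numbers came from the titles. Nothing says that replicates came from separate cultures, so p-values measure the spread between these libraries.

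From these lists, pileups and background levels were recovered from fold and p-value for 100% of peaks. Background levels are in reads per window of unstated length. Intervals of GENCODE release 44 on the autosomes and X were used, with coordinates counted from 1. The canonical start is that of the annotation's canonical transcript. A peak within 1 kb of any start counted as start site, otherwise as body, otherwise as flank up to 100 kb. limma 3.58.1 (R 4.3.3) was fitted to log2(peaks per 100000 peaks + 1) over 19605 genes with at least 8 peaks over the 8 libraries, with Benjamini-Hochberg adjustment and a threshold of 0.05, and the same fit was tested on simulated data. Fold changes on this scale understate those of low genes. The exact permutation test was one-sided on the share of variance between lines over all pairings of the 8 libraries, with a smallest p of 0.00952. Peaks of the 8 libraries were merged into regions, and a line was said to have a region where each of its libraries had a peak there. Sequences were read from GRCh38 with pysam 0.24.0, and ranks used the deposited −log10 p within each list. Tables were made with python 3.11.15 and pandas 2.3.3. Alternatives were other peak cutoffs, thinning, window sizes, scalings, pseudocounts, filters and leaving out each library. All 10 genes were named, with up to 3 GM12878-only regions each considered, and of the other pathway genes the 3 largest called differences in each direction. The 10 genes and all lists were chosen with earlier results of these data known. Some marker genes and 1 upstream window are not reported here.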

Additional observations from a re-analysis of the deposited data

How the results depend on the processing

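The 10 log2 differences had 200 alternative values, counting those of the exact permutation test for any difference between lines. Of these, 135 kept direction and side of the threshold, 49 fell short of it, 9 newly passed and 7 changed sign. With the 20000 best peaks these were NFKBIA (-0.74, called lower), BIRC3 (0.17), NFKB2 (0.31) and RELA (0.43), and with unscaled numbers BIRC3 (0.07), NFKB2 (0.07) and RELA (0.18). The cause was not tested. Genes called higher numbered 2482 to 5003 and lower 2877 to 5468 when 1 library was left out, with the lowest counts without GM12878 replicate 1. The line that lost a library was assumed to vary like the others. The replicate block gave 4466 higher and 4886 lower and the same 7 of the 10 genes higher, with 2 lower (NFKB2 was added to BIRC3); replicate numbers did not pair the libraries, with correlations of deviations from -0.0172 to 0.019. Unscaled numbers gave 10242 higher and 1757 lower (85.4% of calls higher against 47.7%) and moved the median of all genes to 0.34, against 0.71 for the 10 genes. With the 20000 best peaks 3345 genes were higher and 2202 lower (60.3% higher) with a median of 0.13 for all genes and 0.37 for the 10, and without start site peaks 57.9% of calls were higher. With the 20000 best peaks, 5 of the 10 genes had start site peaks in HFF1. The share of all genes with start site peaks in that setting was not counted. Mean peak numbers at the 10 genes, 232, 96.5, 198 and 178 in GM12878, HEK293T, HFF1 and K562, became 59.0, 37.5, 42.5 and 61.0 with the 20000 best peaks and 146, 62.0, 110 and 102 with 50 kb flanks. With a −log10 q of at least 5 they were 224, 89.5 and 188 in GM12878, HEK293T and HFF1, and after thinning 182, 126 and 118 in GM12878, HFF1 and K562. Regions of a single line numbered 17, 3, 5 and 10 with the 20000 best peaks. After thinning there were 8 in HEK293T, 26 in HFF1, 15 in K562 and 59 in GM12878, of which 12 at REL. With a peak in at least 1 library sufficing there were 8 in HEK293T and 50 in K562, and with an overlap of 50% of the shorter peak 3 in HEK293T. HEK293T regions numbered 1 to 6 when 1 library was left out. The shorter sequence GGGANTTTC was in 1.32% of the GM12878-only peaks of replicate 1 at the 10 genes (genome 1.82%). HEK293T had the lowest depth, and 47 of the 75 GM12878-only regions still had a peak in both GM12878 libraries after thinning to it (62.7%, genome 56.7%).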

Other observations

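The other lines had their own regions at these genes. K562 alone had 10 regions at TNFAIP3, more than at any other of the 10 genes, and the best-ranked lay at chr6:137955152-137956005 in introns of the non-coding genes LINC02865 and SIMALR, 88169 bp after the canonical start, with folds of 9.29 and 9.50. At REL, K562 alone had 4 regions, the best-ranked 72970 bp before the start (folds 9.20 and 9.09). HFF1 alone had 9 regions at NFKB1 and 9 at NFKB2, 8 at BIRC3 and 5 at REL. Its best-ranked region at NFKBIA, at chr14:35374309-35374707, lay between genes 30216 bp after the start (folds 9.15 and 9.44), and that at BIRC3, at chr11:102225680-102226456, lay in an intron of YAP1 (folds 12.6 and 12.1). The sole HEK293T region of this kind was in an intron of NFKB1, 40537 bp after the start, with folds of 12.0 and 7.50.

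Within 100 bases of the summit, the kappaB consensus was more frequent in peaks of the 10 genes outside GM12878-only regions than inside them. Outside, it was in 21 of 153 peaks of GM12878 replicate 1 (13.7%, genome 8.23%) and 20 of 158 of replicate 2 (12.7%, genome 8.20%), and inside, in 6 of 76 (7.89%, genome 9.57%) and 7 of 76 (9.21%, genome 9.52%). Within 50 bases the order was the reverse, with 4.58% outside against 6.58% inside in replicate 1 and 4.43% against 9.21% in replicate 2. Neither difference was tested. Among all peaks of the 10 genes, the consensus was within 100 bases in 27 of 229 of replicate 1 (11.8%, genome 8.71%). In replicate 2 it was in 27 of 234 (11.5%, genome 8.66%). The difference from the genome was not tested either.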
